A study of Mus musculus with 6 samples.

Results

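The transcription factors that set photoreceptor fate were followed as a set of 10 genes, out of 52143 in the deposited gene table. The set, chosen by gene symbol, was Nrl, Nr2e3, Crx, Otx2, Rorb, Neurod1, Prdm1, Esrrb, Mef2d and Samd7. Each symbol had 1 row on a main chromosome, and these genes carried 59 of the 136550 annotated transcripts counted. All 10 genes passed the filter on low counts. RNA had been sequenced from mouse rods, 3 libraries in each of 2 groups. Retinas were electroporated on postnatal day 0 with 0.4 µl of plasmid, and EGFP-positive cells were sorted by flow cytometry on postnatal day 10. The control group received pLKO.1-Scrambled, a vector with a hairpin RNA of scrambled sequence, and the other group a short hairpin RNA against Jun, each at 2.5 µg/µl. Both groups also carried Nrlp-EGFP at 1.5 µg/µl. In that reporter the promoter of Nrl, itself one of the 10 factors, drives EGFP, by which the cells were sorted. No label gives a strain, an allele or the number of animals behind a library. Each p-value therefore sets a group difference against the spread between these libraries only, which may be partly technical.

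Photoreceptor precursors are made by a cascade of transcription factors. OTX2, a homeodomain protein, starts the photoreceptor programme and activates Crx, a related homeodomain gene whose product drives most photoreceptor genes. RORB, a nuclear receptor, lies upstream of Nrl, and PRDM1 and NEUROD1 stabilise the photoreceptor choice and support its survival. NRL, a basic leucine zipper protein of the Maf family, then selects rod over cone fate and switches on Nr2e3, a nuclear receptor that represses cone genes and acts with NRL and CRX on rod genes. ESRRB, MEF2D and SAMD7 act in the maturing rod: an orphan nuclear receptor needed for rod survival, a MADS-box partner of CRX at photoreceptor enhancers, and a subunit of a Polycomb repressor complex.

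Nr2e3 fell 18.7-fold in the libraries labelled Jun knockdown, and it was the 1 factor of the 10 that passed the test. Its coding transcript fell as well, and most of the Nr2e3 counts left in the labelled libraries were assigned to a non-coding transcript that lacks the first exons of the coding one. The bases at the exon boundaries show what separates the transcripts, and are printed from the GENCODE vM21 transcripts, 15 bases on each side, 5′ to 3′, with the bases after the boundary in capitals. Nr2e3-201 encodes 395 codons in 8 exons on the minus strand of chromosome 9. Nr2e3-202, annotated as a retained intron with no coding sequence, starts in an exon of 61 bases (chr9:59960599-59960659) that lies 10481 bases upstream of the Nr2e3-201 start, and splices from there into the exon 3 boundary of Nr2e3-201. It then keeps the 100 bases (chr9:59948825-59948924) between exons 3 and 4 of Nr2e3-201. The same 15 bases follow the boundary in the last pair of lines below, where the upstream exon replaces exons 1 and 2.
Nr2e3-201 exon 1 to 2: gagaggatccaacagGTGTGGGCCCCTCGC
Nr2e3-201 exon 2 to 3: gaggctcatctacagGTGCCAAGTCGGGGC
Nr2e3-202 exon 1 to 2: agaacggatgttaagGTGCCAAGTCGGGGC

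Crx, Otx2 and Nrl each had transcripts that also differ at an exon boundary, and their counts or shares are given further on. Crx-204 begins in an exon of its own (chr7:15872274-15872388) that lies between exons 1 and 2 of Crx-201, and is annotated with 323 codons against 299 in Crx-201. Otx2-202 enters the exon shared by both at an earlier splice site than Otx2-201 does, and is annotated with 297 codons against 289. Nrl-203 and Nrl-201 have the same coding length of 237 codons and differ in the splice site at which their second exon begins. They also differ at their ends, with a last exon of 1370 bases in Nrl-203 and 1910 bases in Nrl-201.
Crx-201 exon 1 to 2: ttctcctttccaaagGTGCCCTCATCTGGG
Crx-204 exon 1 to 2: actgctctttcaaagGTGCCCTCATCTGGG
Otx2-201 exon 2 to 3: ccgtgggctaccccgCCACCCCCCGGAAAC
Otx2-202 exon 3 to 4: ccgtgggctaccccgGGCCCTGGGCTTCTT
Nrl-201 exon 1 to 2: ccgcacggggaaaagCCCCCTTGTTCTGAA
Nrl-203 exon 1 to 2: ccgcacggggaaaagGGACGACACCAGCCC

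Depth and the state of the label touch every value below. Controls held 32150100 to 105801000 counts and the labelled libraries 13211300 to 13998400, so depth and group cannot be told apart. Jun stood at 6.47, 5.85 and 7.16 CPM (counts-per-million, scaled by TMM, a between-library factor) in controls, against 1.84, 17.6 and 19.3 CPM in the labelled libraries. It was lower in 1 of the 3, and the group is therefore called by its label throughout. Rod markers were abundant in all 6 libraries, with a summed level of 135213 to 141550 CPM over 13 genes in controls and 33040 to 50910 CPM in the labelled libraries. Markers of other cells moved with the group as well. The summed level of 9 microglial markers was 711 to 1030 CPM in controls, against 1.75 to 5.23 CPM in the labelled libraries. That of 5 vascular and blood markers was 138 to 288 CPM and 2.18 to 3.86 CPM, and Hba-a1 was at 0 in all 3 labelled libraries. Summed bipolar markers stood at 788 to 922 CPM and 1044 to 1671 CPM over 12 genes, and 8 Müller glia markers at 644 to 956 CPM and 151 to 360 CPM. The part of these cells in the results was not tested, and fewer cells of a type cannot be told apart from less RNA per cell in these bulk libraries.

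Across the set, all 10 fitted differences were negative, with 1 factor past the threshold as lower (adjusted p under 0.05, edgeR's quasi-likelihood test with Benjamini-Hochberg adjustment over 12815 genes) and 0 as higher. In all tested genes 1.35% passed as lower and 0.32% as higher. An unadjusted p under 0.05 was reached by 6 of the 10, against 16.8% of all tested genes. In 7 of the 10 every labelled library lay below every control in TMM-scaled CPM, which held for 15.7% of all tested genes. This count was not repeated under other scalings. The median log2 fold change of the set was -1.55, against -0.12 over all tested genes, of which 52.1% were negative. Scaling by the upper quartile or by library totals moved the median of all genes to 0.27 and 0.38, and the set's median minus that of all genes was -1.43, -1.44 and -1.47 under the 3 scalings.

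**Figure D1:**
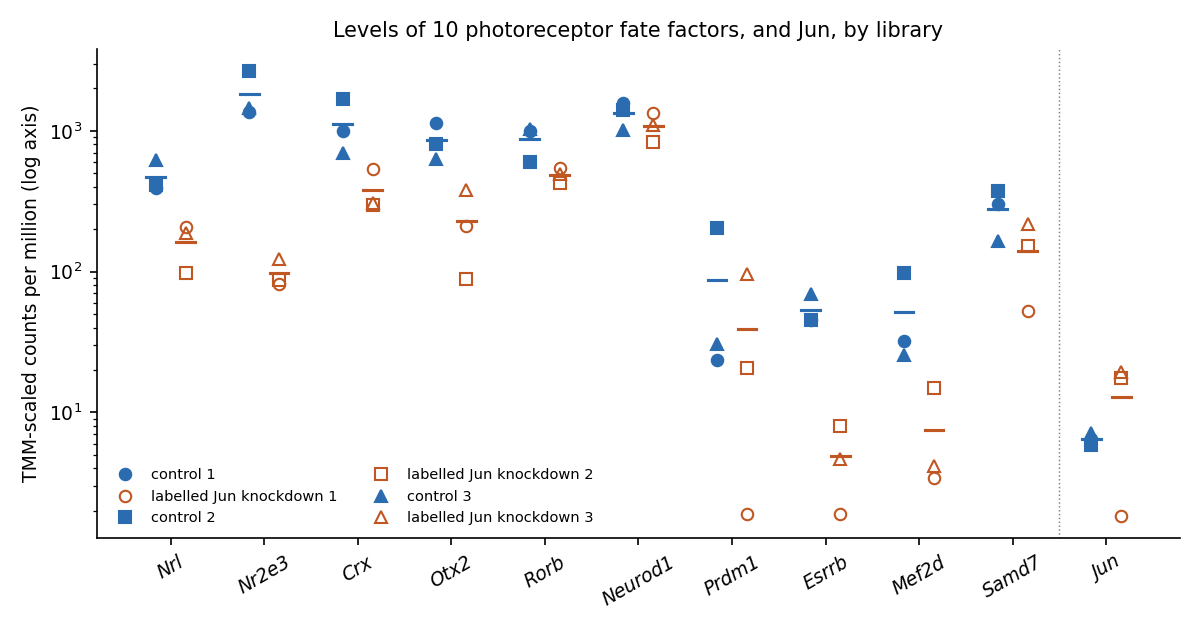
Level of each factor and of Jun in each library (TMM-scaled CPM, log axis). Filled blue symbols are the 3 controls, open orange symbols the 3 libraries labelled Jun knockdown, the symbol shape gives the replicate number, and bars are group means. The groups stand apart for 7 factors and overlap for Neurod1, Prdm1, Samd7 and Jun.

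Levels of different genes can be compared only per length, so the transcript counts were turned into transcripts-per-million values (TPM) with GENCODE lengths. In controls Nr2e3 was the highest of the 10 at a mean of 1201 TPM, above Neurod1 (611 TPM), Otx2 (530 TPM), Crx (505 TPM), Nrl (414 TPM) and Rorb (249 TPM). Samd7 followed at 152 TPM, and Prdm1, Esrrb and Mef2d were lowest at 25.5, 19.7 and 15.1 TPM. Between neighbours in this order, the control ranges were separate for Nr2e3 over Neurod1, Nrl over Rorb and Samd7 over Prdm1, and overlapped for the other pairs. In the labelled libraries the same scale gave Neurod1 the first place at 631 TPM, ahead of Nrl (221 TPM), Crx (213 TPM), Rorb (180 TPM) and Otx2 (177 TPM). Nr2e3 stood at a mean of 81.3 TPM there and Samd7 at 95.4 TPM, with overlapping ranges. The ranges of Nrl, Crx, Rorb and Otx2 in the labelled libraries overlapped as well.

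Among the factors that open the programme, Otx2 (ENSMUSG00000021848, chr14:48657677-48673819) measured 1131, 809 and 629 CPM in controls, against 210, 88.6 and 383 CPM in the labelled libraries. The 2 groups did not overlap, and the labelled libraries spread over a wider relative range. The difference was -1.92 on the log2 scale (SE 0.55, adjusted p = 0.115, edgeR), short of the threshold. Rorb (ENSMUSG00000036192, chr19:18930605-19111196) measured 994, 603 and 1032 CPM in controls, against 545, 424 and 492 CPM in the labelled libraries. Its lowest control was 1.11 times its highest labelled library, so the groups were separate by little, and the fitted log2 difference was -0.85 (SE 0.34, adjusted p = 0.260, edgeR). On the TPM scale the groups of Rorb overlapped, with control 2 at 189.9 TPM and labelled library 1 at 190.1 TPM.

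Prdm1 (ENSMUSG00000038151, chr10:44437177-44528501), a zinc finger repressor present only briefly in precursors, was uneven within both groups. It measured 23.5, 205 and 30.4 CPM in controls, against 1.91, 20.5 and 95.6 CPM in the labelled libraries. Control 2 and labelled library 3 stood far above their groups, and the groups overlapped (log2 fold change -1.14, SE 1.38, adjusted p = 0.716, edgeR). Without control 2 the fitted difference was 0.52 with the opposite sign (adjusted p = 0.914, edgeR).

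Neurod1 (ENSMUSG00000034701, chr2:79452521-79456751), a basic helix-loop-helix factor needed to keep photoreceptors alive, had the smallest fitted difference. It measured 1585, 1409 and 1006 CPM in controls, against 1333, 838 and 1092 CPM in the labelled libraries, overlapping ranges with a log2 fold change of -0.29 (SE 0.30, adjusted p = 0.657, edgeR). The sign turned under upper-quartile scaling (0.10), library totals (0.19) and thinning to the smallest library (0.025). Neurod1 lies within Cerkl on the same strand, and Cerkl stood at 99.6, 195 and 42.3 CPM in controls, against 10.2, 62.5 and 65.8 CPM in the labelled libraries, so reads of the overlapping stretch can be split between them.

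Crx (ENSMUSG00000041578, chr7:15865947-15879968) measured 1004, 1674 and 693 CPM in controls, against 535, 299 and 306 CPM in the labelled libraries. Every labelled library lay below every control, with a lowest control 1.30 times the highest labelled library. On the TPM scale these libraries, control 3 and labelled library 1, stood at 286.1 and 285.6 TPM. The fitted log2 difference was -1.56 (SE 0.43, adjusted p = 0.103, edgeR). Its promoter is shown because it carries 2 copies of TAATCC, the sequence that CRX and OTX2 proteins recognise, on the strand opposite to the gene (GGATTA, in capitals). The stretch is RefSeq sequence of GRCm38.p6, minus strand, chr7:15879969-15880205, the 237 bases before the first exon of Crx-201.
Crx promoter: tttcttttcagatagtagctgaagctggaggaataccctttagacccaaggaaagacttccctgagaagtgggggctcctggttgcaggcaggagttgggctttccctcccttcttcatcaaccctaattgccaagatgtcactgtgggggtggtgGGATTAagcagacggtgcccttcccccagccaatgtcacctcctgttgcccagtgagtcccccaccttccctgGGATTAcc

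Promoters of the set were searched over 300 bases, from 250 before to 50 after each RefSeq start, on both strands, for 5 motifs. TAATCC was found in 3 of the 10 genes (Crx, Otx2 and Samd7), against 7.06% of 32851 mouse promoters. TGCTGA, the core that NRL recognises, was found in 4 of 10 (19.5% of all promoters). AGGTCA, the nuclear receptor core, was found in 0 (16.3%), CAGATG, an E-box, in 2 (17.2%), and TGANTCA, the AP-1 motif bound by JUN and its partners, in 2 (7.81%). The AP-1 matches were in Prdm1 and Rorb. TGCTGA and TGANTCA share the letters TGA and were counted separately. Otx2, Rorb and Esrrb have more than 1 RefSeq start, and a match at any of them was counted, which gives these genes more sequence to match in than a single promoter has. A match is a run of letters and was not tested as a binding site.

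Nrl (ENSMUSG00000040632, chr14:55518978-55524981) measured 393, 410 and 616 CPM in controls, against 206, 97.2 and 187 CPM in the labelled libraries. Each labelled library lay below each control, with the lowest control 1.90 times the highest labelled library. The log2 fold change of -1.53 (SE 0.46) did not pass (adjusted p = 0.138, edgeR). The EGFP sort in both groups used the promoter of this gene.

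Nr2e3 (ENSMUSG00000032292, chr9:59942771-59960659) measured 1369, 2641 and 1441 CPM in controls, against 82.2, 86.5 and 122 CPM in the labelled libraries. The lowest control was 11.2 times the highest labelled library, the widest gap in the set. Nr2e3 fell by 4.23 on a log2 scale (SE 0.41, adjusted p = 0.00246, edgeR). The call held with each library left out in turn (adjusted p = 0.00927 to 0.0189, edgeR) and was lost with limma-voom (adjusted p = 0.130, log2 fold change -4.55). None of the 5 motifs was present in its 300-base promoter. The 212 bases before the first exon of Nr2e3-201 (RefSeq sequence of GRCm38.p6, minus strand, chr9:59950118-59950329) are shown because the transcript that starts here fell.
Nr2e3 promoter: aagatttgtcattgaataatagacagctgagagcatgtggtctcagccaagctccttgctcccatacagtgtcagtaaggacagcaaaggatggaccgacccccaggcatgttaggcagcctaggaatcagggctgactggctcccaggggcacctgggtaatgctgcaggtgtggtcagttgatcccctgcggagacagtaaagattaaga

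**Figure D2:**
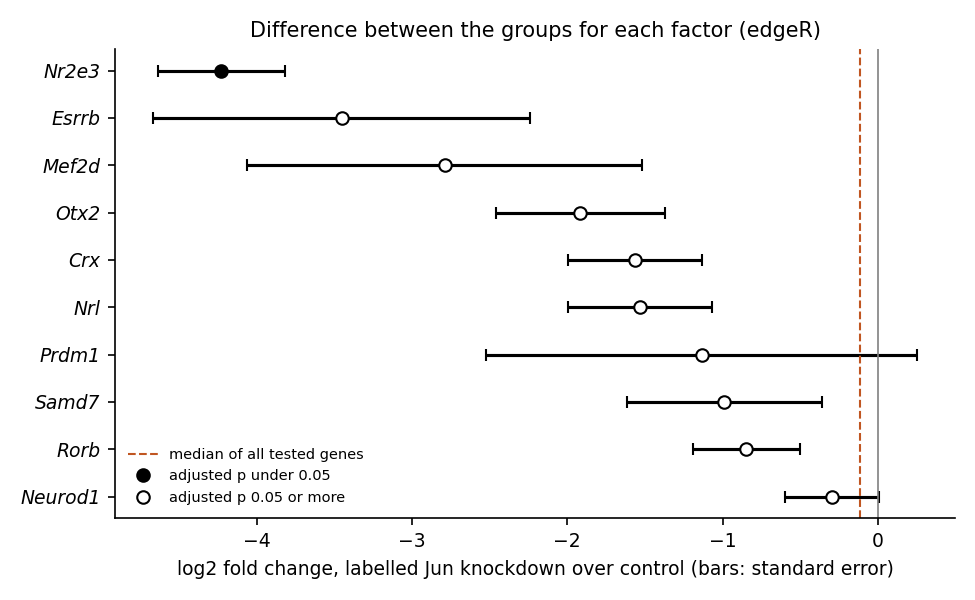
Fitted log2 fold change of each factor, libraries labelled Jun knockdown over control, with its standard error (edgeR, 3 libraries per group). The filled point is Nr2e3, the 1 factor with an adjusted p under 0.05, at -4.23. The dashed line is the median of all tested genes at -0.12, and the other points run from -3.45 for Esrrb to -0.29 for Neurod1.

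Among the factors of the maturing rod, Esrrb and Mef2d had the lowest mean CPM of the set in both groups. Esrrb (ENSMUSG00000021255, chr12:86361117-86521628) measured 44.9, 45.6 and 69.1 CPM in controls, against 1.91, 8.01 and 4.64 CPM in the labelled libraries. Its lowest control was 5.61 times its highest labelled library, but the labelled libraries held only 28, 142 and 71 counts. The fitted log2 difference was -3.45 with a wide error (SE 1.21, adjusted p = 0.197, edgeR).

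Mef2d (ENSMUSG00000001419, chr3:88142372-88172086) measured 32.1, 98.3 and 25.6 CPM in controls, against 3.40, 15.0 and 4.12 CPM in the labelled libraries. The groups did not overlap, and replicate 2 was the highest in each (log2 fold change -2.79, SE 1.27, adjusted p = 0.309, edgeR). The antisense gene 1700113A16Rik overlaps its end, and without a strand-marking step in the protocol their reads cannot be told apart there. Samd7 (ENSMUSG00000051860, chr3:30746293-30767174) measured 300, 374 and 165 CPM in controls, against 52.8, 152 and 217 CPM in the labelled libraries. These ranges overlapped, and the fitted log2 difference was -0.99 (SE 0.63, adjusted p = 0.458, edgeR).

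The libraries did not stand in 1 order across the set. Control 2 was the highest control for 5 of the 10 factors. Among the labelled libraries, replicate 1 was the lowest for 5 factors and replicate 2 for the other 5, while replicate 3 was the lowest for 0. Replicates 1 and 3 were each the highest for 4 factors and replicate 2 for 2.

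The transcripts of each factor were counted as well as the genes. The deposited transcript counts are on their own scale, since only 6.62% of gene values lay within 1% of the sum of their transcripts. Nr2e3-201 had 49306, 209296 and 35994 counts in controls and 397, 61 and 294 in the labelled libraries. It made up 91.8, 87.2 and 86.8% of the counts of Nr2e3 transcripts in controls, and 32.2, 3.97 and 15.9% in the labelled libraries. Nr2e3-202 ran the other way, with 0, 62 and 0 counts in controls and 828, 1410 and 1550 in the labelled libraries, where it was 67.3, 91.2 and 83.7% of the total. In CPM of coding transcripts alone, Nr2e3 stood at 1521, 2905 and 1371 in controls, against 25.5, 3.32 and 17.8 in the labelled libraries. The ratio of these means was 124, against 18.7 for the whole gene.

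Nr2e3-201 fell by 6.96 in log2 terms (SE 0.87, adjusted p = 0.0204, edgeR over 20706 transcripts), a call that was lost with limma-voom (adjusted p = 0.552, log2 fold change -7.94). Nr2e3-209, a retained-intron transcript that begins beside Nr2e3-201 and keeps the same 100 bases as Nr2e3-202, fell from 2826, 14675 and 3410 counts to 0 in all 3 labelled libraries. That is at least 2692-fold lower in CPM, with 3 counts over the group as the floor (adjusted p = 0.0360, edgeR). This floor covers counting error only. Nr2e3-209 holds 0 stretches of 31 bases found in it alone, so its counts are estimated assignments among overlapping transcripts. The opposite difference of Nr2e3-202 was 7.97 (SE 2.49) and did not pass (adjusted p = 0.148, edgeR), while limma-voom passed it as higher (10.26, adjusted p = 0.0121). With 1 library left out in turn, the adjusted p of Nr2e3-201 ran from 0.00858 to 0.120 and that of Nr2e3-209 from 0.0504 to 0.201 (edgeR). The call of Nr2e3-201 ended without any 1 of the controls or without labelled library 3.

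**Figure D3:**
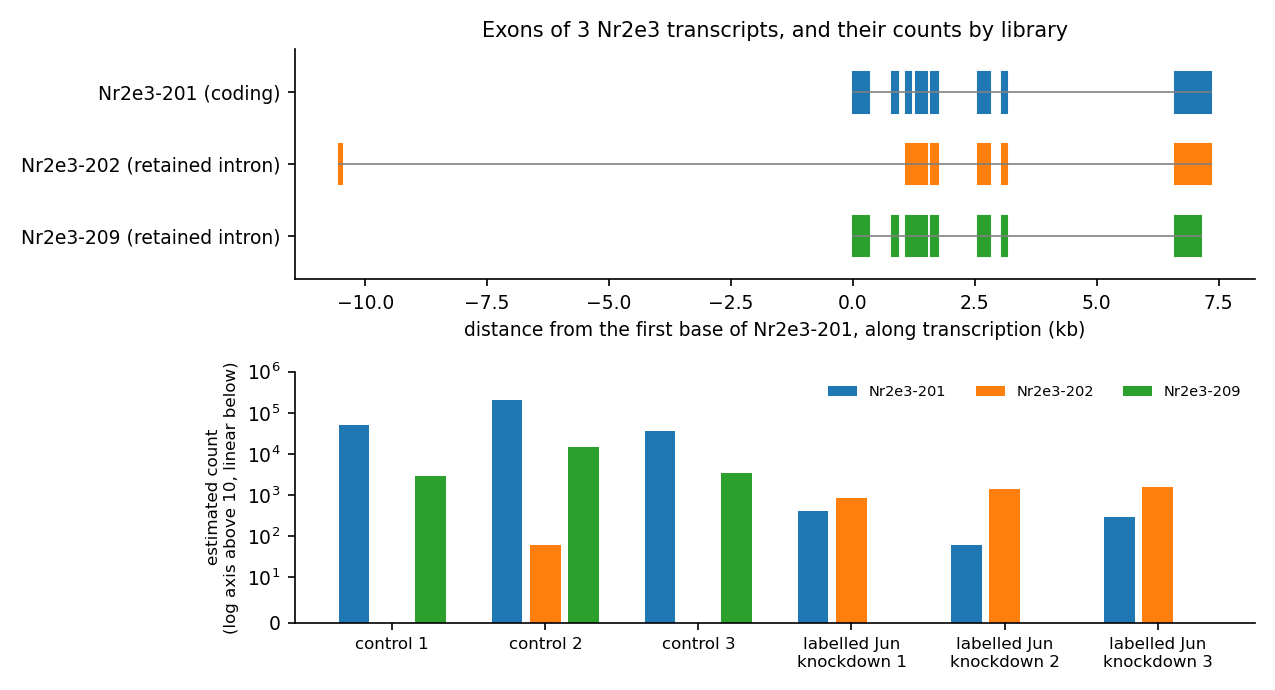
Exons of 3 Nr2e3 transcripts (top, kb from the first base of Nr2e3-201 along the direction of transcription) and their estimated counts in each library (bottom, log axis above 10 and linear below). Nr2e3-201 is 35994 or more in controls and 397 or less in the libraries labelled Jun knockdown, while Nr2e3-202 is 62 or less in controls and 828 or more in the labelled libraries.

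The sequences set a limit on how these transcripts can be separated. Of the 1711 words of 31 bases in Nr2e3-202, 188 are not in Nr2e3-201, 59 are not in Nr2e3-204, and 0 are found in Nr2e3-202 alone. Nr2e3-204, which holds 1004 words that Nr2e3-202 lacks, was at 6, 0 and 0 counts in the labelled libraries. The counts therefore do not show by themselves how many reads reached the upstream exon of Nr2e3-202. That exon lies inside the non-coding gene Gm15507, on the same strand, which stood at 18.0, 0.0555 and 0 CPM in controls, against 0.681, 0 and 0.0654 CPM in the labelled libraries. Over all genes with a coding transcript, retained-intron transcripts took 3.23% ± 0.406 of those genes' counts in controls and 8.49% ± 0.990 in the labelled libraries (SD, n = 3 each, exact permutation test, two-sided, p = 0.1, the smallest that 3 against 3 allows). The part of this library-wide difference in the Nr2e3 shares was not tested.

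In Otx2 as well, 1 transcript fell. Otx2-202 had 2706, 12436 and 2426 counts in controls and 0 in all 3 labelled libraries, which is at least 2261-fold lower in CPM with 3 counts over the group as the floor (adjusted p = 0.0429, edgeR). This call ended with any 1 library left out (adjusted p = 0.0613 to 0.234, edgeR). Of its words of 31 bases, 0 are found in Otx2-202 alone. Its counts are therefore estimated assignments among overlapping transcripts, and the floor covers counting error only. The main transcript, Otx2-201, was lower in each labelled library than in each control, with 36064, 54437 and 12642 counts in controls and 3438, 1543 and 6417 in the labelled libraries. It held 85.8, 73.6 and 72.5% of the Otx2 total in controls and 95.7, 81.9 and 96.2% in the labelled libraries, overlapping ranges. The non-coding gene Otx2os1 overlaps Otx2 on the other strand and stood at 83.0, 58.2 and 108 CPM in controls, against 166, 108 and 126 CPM in the labelled libraries.

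Over all 34 tested transcripts of the set, 3 passed as lower (Nr2e3-201, Nr2e3-209 and Otx2-202) and 0 as higher. Of all tested transcripts, 0.604% passed as lower and 0.058% as higher. The fitted difference was negative in 27 and positive in 7. A test of transcript use within a gene (edgeR's exon-usage test applied to transcripts, Simes) covered 6 of the factors. Otx2 passed (adjusted p = 0.0283), Nr2e3 missed the threshold (adjusted p = 0.0510), and Crx (0.175), Nrl (0.593), Samd7 (0.724) and Rorb (0.848) did not pass. Of all 4548 genes tested in this way 0.484% passed. The call of Otx2 was lost with any 1 library left out (adjusted p = 0.119 to 0.315), where 1 to 6 of all tested genes passed.

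The mix of Nrl transcripts stood apart between the groups in all libraries. Nrl-207 is a short transcript of 2 exons with a first exon of 520 bases, annotated with 62 codons. It made up 43.1, 46.1 and 40.5% of Nrl counts in controls and 3.41, 8.94 and 5.53% in the labelled libraries. Nrl-203 took 17.7, 21.5 and 25.9% in controls and 66.1, 67.6 and 69.2% in the labelled libraries. Neither range overlapped. The difference in Nrl-207 was -3.77 on the log2 scale (SE 0.69, adjusted p = 0.0643, edgeR) and that in Nrl-203 was 0.87 (SE 0.64, adjusted p = 0.599, edgeR). The share of the main transcript in controls was compared between the groups in 9 factors, and for Nrl, Nr2e3 and Crx the exact permutation test gave p = 0.1, two-sided, the smallest possible and 0.3 after adjustment over the 9.

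Crx counts in controls were almost all Crx-201, at 100, 99.8 and 99.8%. In the labelled libraries Crx-204 reached 6.54, 34.3 and 7.64%, with 558, 1996 and 390 counts against 0, 227 and 26 in controls. All 3 labelled libraries lay above all 3 controls, and labelled library 2 stood apart from the others. The difference in Crx-204 was 5.33 (SE 2.16, adjusted p = 0.289, edgeR), and that in Crx-201 was -2.04 (SE 0.50, adjusted p = 0.0966, edgeR).

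**Figure D4:**
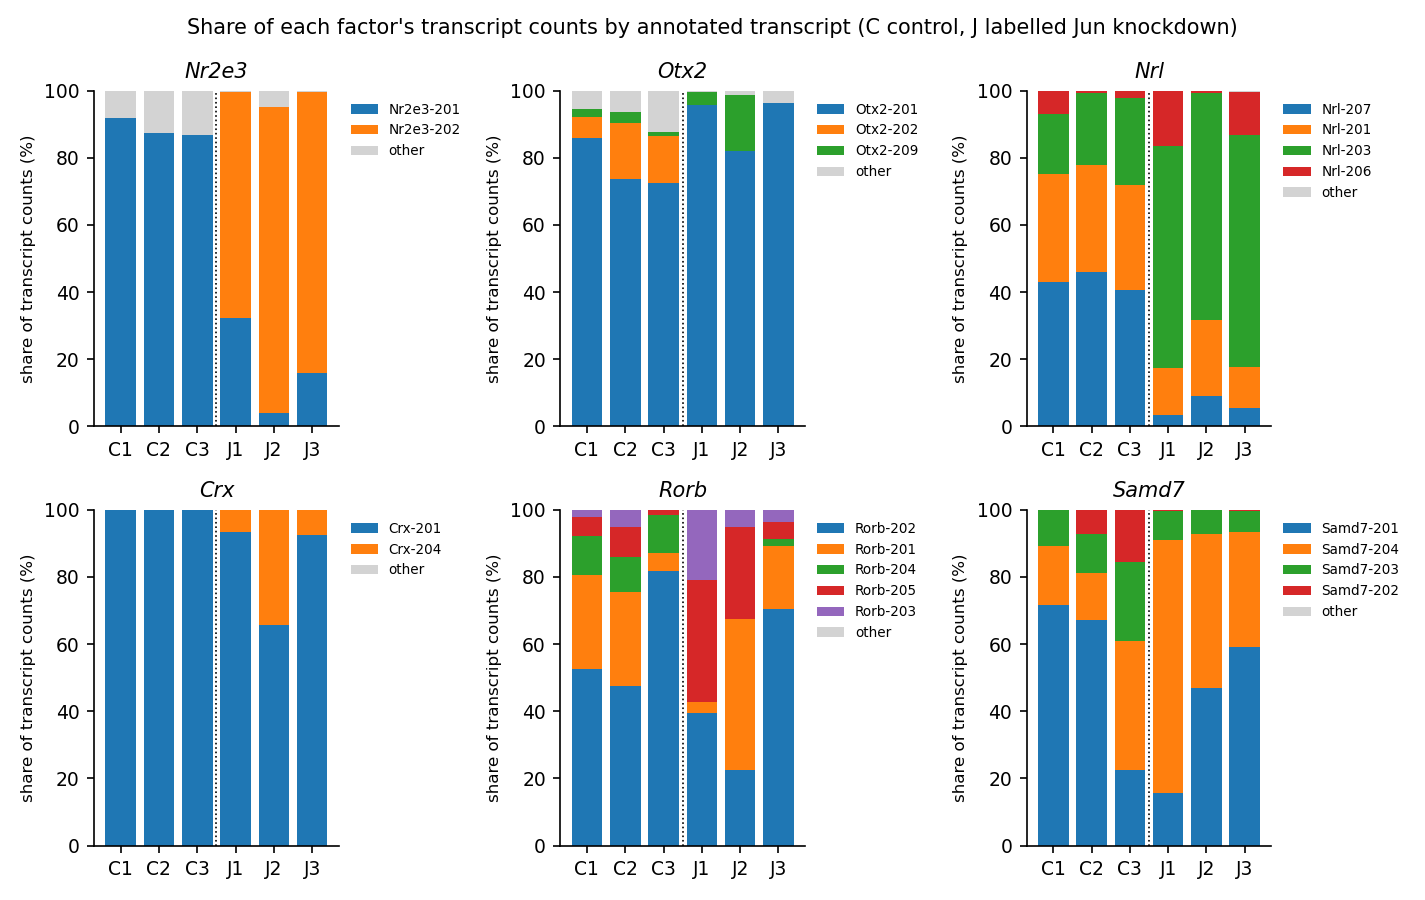
Share of each factor's transcript counts held by its annotated transcripts, in percent, for the 6 factors with more than 1 tested transcript (C1 to C3 are controls, J1 to J3 libraries labelled Jun knockdown; grey sums the transcripts under 10% in every library). Nr2e3-202 and Nrl-203 hold most of the counts in J1 to J3, while the main transcripts of Rorb and Samd7 have overlapping shares in the groups.

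Rorb has coding transcripts of 470 (Rorb-201), 459 (Rorb-203) and 385 codons (Rorb-202), the second of which starts in its own first exon (chr19:19110552-19111196). Rorb-202 held 52.5, 47.6 and 81.6% of Rorb counts in controls and 39.6, 22.5 and 70.6% in the labelled libraries. Rorb-201 held 28.0, 27.9 and 5.59% in controls and 3.31, 44.9 and 18.7% in the labelled libraries. Rorb-203 held 2.19, 5.27 and 0% in controls and 20.9, 5.0 and 3.76% in the labelled libraries. All 3 pairs of ranges overlapped, and control 3 and labelled library 3 were alike in their high share of Rorb-202. Rorb-204, a retained-intron transcript, had 3485, 4632 and 2155 counts in controls and 0, 0 and 125 in the labelled libraries (adjusted p = 0.403, edgeR). Rorb-205, also a retained-intron transcript, held 5.63, 8.76 and 1.59% in controls and 36.3, 27.6 and 4.89% in the labelled libraries. Its log2 fold change was 1.22 (adjusted p = 0.668, edgeR). Together they held 17.3, 19.2 and 12.8% in controls and 36.3, 27.6 and 6.92% in the labelled libraries, overlapping ranges. They share 2266 words of 31 bases, and 0 are found in Rorb-204 alone.

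The remaining factors had 1 transcript with most of the counts in most libraries, except Samd7, which had a mix. Neurod1 has a single transcript of 357 codons. Esrrb-203, with 454 codons, held 100, 95.9 and 87.1% of Esrrb counts in controls and 100% in every labelled library. Mef2d-201, with 507 codons, held 100, 82.7 and 99.7% in controls and 100% in the labelled libraries. Prdm1-201, with 856 codons, held 99.0, 85.4 and 100% in controls and 84.7, 25.0 and 100% in the labelled libraries. Prdm1-202 held 66.2% in labelled library 2. Samd7-201, the coding transcript of 445 codons, held 71.6, 67.2 and 22.4% in controls and 15.6, 47.0 and 59.3% in the labelled libraries. The retained-intron transcript Samd7-204 took 17.7, 13.9 and 38.6% and 75.3, 45.8 and 34.2%. Samd7-203, annotated for nonsense-mediated decay, held 10.7, 11.6 and 23.4% in controls and 8.85, 7.17 and 6.29% in the labelled libraries. Those ranges did not overlap, and its fitted difference did not pass (adjusted p = 0.430, edgeR). Samd7-202, of the same annotation, held 0.0293, 7.24 and 15.6% in controls and 0.225, 0 and 0.300% in the labelled libraries.

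The genes whose profile over the 6 libraries lay nearest to Nr2e3 were Gnat1, Camk1g and Ldha. The measure was the Euclidean distance between centred log2(CPM + 1) values, over genes with a mean of at least 10 CPM, and it was 0.330 for Gnat1, the rod transducin alpha subunit, 0.432 for Camk1g, a calcium/calmodulin-dependent kinase, and 0.588 for Ldha, a lactate dehydrogenase subunit. Gnat1 had mean levels of 7539 CPM in controls, against 436 CPM in the labelled libraries, Camk1g of 22.9 and 0.0881 CPM, and Ldha of 9855 and 651 CPM. The added 1 shrinks the difference of Camk1g, whose fitted log2 fold change was -7.98 against -4.23 for Nr2e3. Nearest to Nrl were Psmb3, a proteasome subunit (0.301), Ubxn4 (0.395) and Guk1, a guanylate kinase (0.396). Psmb3 had means of 774 and 280 CPM and Guk1 of 1679 and 561 CPM. The points of each profile share their libraries and depth, and the likeness is a description.

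Rod genes that NRL, CRX and NR2E3 are known to act on were lower in large part. Of 28 such genes tested, 14 fell and 0 rose, beside 1.35% lower and 0.32% higher over all tested genes. Their median log2 fold change was -2.11, and 23 fitted differences were negative. DESeq2 passed 8 of them as lower and limma-voom 6, both with 0 higher. Without the filter on low counts edgeR passed 16 as lower and 1 as higher. With 1 library left out it passed 8 to 11, the 8 without control 3. Over all genes, in either direction, DESeq2 passed 12.9% and limma-voom 3.45%. There edgeR passed 2.23% without the filter and 0.264 to 0.739% with 1 library left out. Among the genes with the smallest p-values was Sag, rod arrestin (-3.13, SE 0.15, adjusted p = 7.06e-05, edgeR). Gnat1 (-4.11, SE 0.29, adjusted p = 0.000543, edgeR) and Rom1, an outer segment disc protein (-4.34, SE 0.36, adjusted p = 0.00153, edgeR), were also among them. With limma-voom the call of Gnat1 was lost (adjusted p = 0.332), while those of Sag (0.0138) and Rom1 (0.0188) held. These 3 genes and Nr2e3 all differed by more than 3 on the log2 scale, against 1.53 for Nrl and 1.56 for Crx in the same direction. The 3 genes were picked by their p-values, which favours large differences, and the median of the 28 was -2.11. Whether a target differed more than its factor was not tested.

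Genes of cones, which NR2E3 represses, lay on both sides of 0. Of 14 tested, Gnb3, a transducin beta subunit of cones, fell (-2.63, SE 0.51, adjusted p = 0.0444, edgeR) and 0 rose. The call of Gnb3 ended with any 1 library left out (adjusted p = 0.0840 to 0.159, edgeR), under upper-quartile scaling (0.0596), library totals (0.0660) and thinning (0.0642). DESeq2 passed 0 cone genes as lower, with Gnb3 at an adjusted p of 0.0638, and 1 as higher, and limma-voom passed 0 in either direction. Without the filter on low counts edgeR passed 3 as lower. The median log2 fold change was -0.62, with 9 negative and 5 positive differences.

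No relative of the factors passed. Of 22 genes from the same families, 12 were tested and 0 passed by edgeR in either direction, with 0 at an unadjusted p under 0.05 and 0 by DESeq2 or limma-voom, and the median was -0.72. Among the smallest p-values were those of Mef2a (-2.32, SE 1.32, adjusted p = 0.406, edgeR), Rora (-0.70, SE 0.46, adjusted p = 0.469, edgeR) and Prdm2 (3.52, SE 2.30, adjusted p = 0.471, edgeR).

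Of 35 partner and upstream factors 28 were tested, with 1 lower, 0 higher, a median of -0.13 and 14 differences of each sign. Rnf2, which encodes a ubiquitin ligase subunit of the Polycomb complex PRC1, was the one that fell (-3.95, SE 0.73, adjusted p = 0.0384, edgeR). It measured 479, 551 and 399 CPM in controls, against 7.69, 34.5 and 50.4 CPM in the labelled libraries, without overlap. Its call was kept without labelled library 1 and ended without any other library (adjusted p = 0.0387 to 0.143, edgeR). The call of Rnf2 also ended in edgeR under upper-quartile scaling (0.0584), library totals (0.0605), thinning (0.0513) and the replicate block (0.0771). It held with DESeq2 (adjusted p = 0.00400) and limma-voom (adjusted p = 0.0461). Transcription factors of other retinal cells gave 1 lower and 0 higher of 16 tested, with a median of -0.36. That one was Sebox, a homeobox gene of bipolar cells, at 91.1, 154 and 82.0 CPM in controls, against 0.340, 0.451 and 0.458 CPM in the labelled libraries (-8.02, SE 1.13, adjusted p = 0.0124, edgeR). Leaving out any 1 control ended this call (adjusted p = 0.0643 to 0.0963, edgeR).

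**Figure D5:**
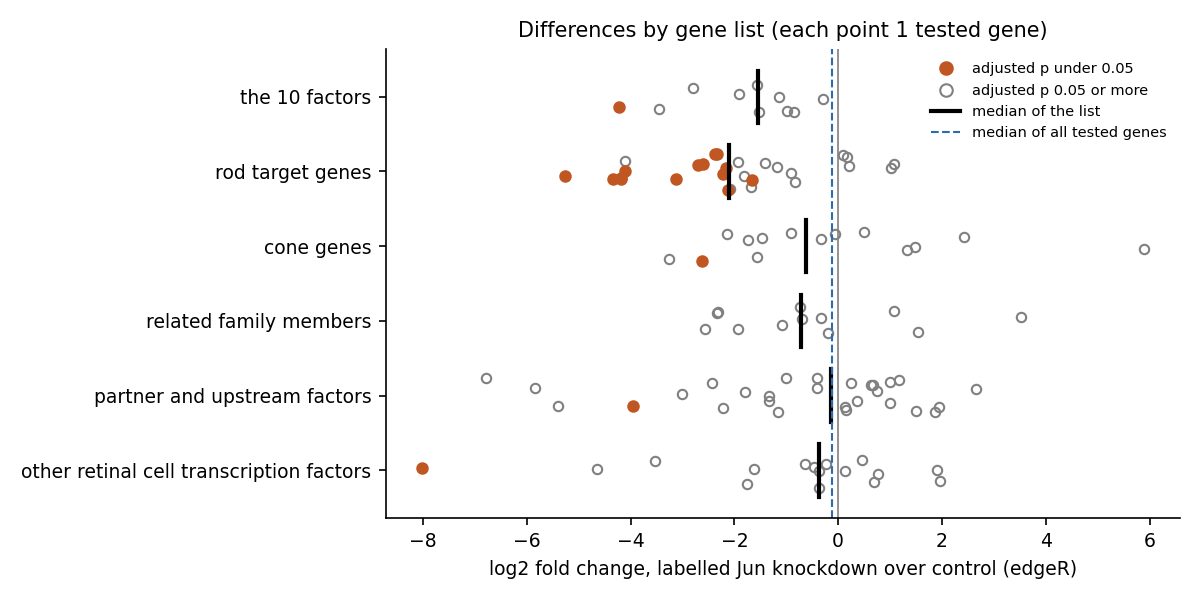
Log2 fold change of every tested gene in 6 lists (1 point per gene, edgeR; filled points have an adjusted p under 0.05; black bars are list medians; the dashed line is the median of all tested genes at -0.12). The list of rod target genes holds 14 filled points and a median of -2.11, and the 10 factors 1 filled point and a median of -1.55.

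Marker lists of the cell types that a retina holds gave the following counts, beside 1.35% lower and 0.32% higher over all tested genes. Of 13 rod markers, which include Nrl and Nr2e3, 9 fell and 0 rose (median -2.34). Sag, Gnat1 and Rom1 are in this list and among the rod target genes, so these counts are not separate. Among 10 cone markers 1 fell and 0 rose (median -0.90), against 0 lower and 1 higher by DESeq2. Bipolar markers gave 1 lower (Sebox) and 1 higher (Prkca) of 11 tested, with a median of 1.02. Microglial markers gave 3 lower of 8 (median -8.27) and vascular and blood markers 3 lower of 4 (median -9.69). DESeq2 passed 7 and 4 of these as lower, and limma-voom 7 and 3. Over all genes, in either direction, DESeq2 passed 12.9% and limma-voom 3.45%. Müller glia (8 tested, median -1.40), amacrine (5, median -0.36), horizontal (2, median -1.58), ganglion (2, median 0.16) and progenitor markers (3, median -0.19) gave 0 in either direction by edgeR. At an unadjusted p under 0.05 these 5 lists gave 2, 1, 0, 0 and 0 genes, DESeq2 2, 1, 0, 0 and 0, and limma-voom 1, 0, 0, 0 and 0. With 1 library left out edgeR passed 6 to 9 rod, 1 to 2 microglial, 0 to 1 vascular and blood and 0 cone markers. The share over all genes was then 0.264 to 0.739%, and Prkca did not pass (adjusted p = 0.0864 to 0.163, edgeR).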

How the data were processed

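The 6 libraries of sorted mouse rods were grouped by their labels. The authors deposited estimated counts per gene and per transcript and a normalised gene table, handled as a signal on a scale the authors set. Trimmomatic 0.39, kallisto 0.44.0 and edgeR 3.28.1 stand in the submitters' processing notes with no stated role, and no genome build is named in the sources used. Deposited coordinates were those of GENCODE vM21 (GRCm38) for all 10 factors and for 98.2% of matched genes. Per the labels' protocols, cDNA came from a SMART-seq v4 kit and libraries from Nextera XT. No sample column was left out (0).

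Estimated counts were rounded and filtered (filterByExpr), then TMM-scaled and tested on group with edgeR 4.0.16 (R 4.3.3; quasi-likelihood, Benjamini-Hochberg, 0.05). The standard error is the log2 fold change over the square root of F. TPM used GENCODE lengths, known for 98.5% of transcripts. Levels are CPM per library, where intervals and floors cover counting error only. Alternatives were DESeq2 1.42.0, limma 3.58.1 (voom, and trend on log2 of the deposited signal plus 0.5 or 2), 2 scalings, other filters, thinning, a replicate block and each library left out; those for transcript use and the lists were chosen after seeing the data. Functions were tested on simulated counts.

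Named were the 10 factors, their transcripts with 10% or more of a gene's counts in a library, the genes of each list that passed (the 4 smallest p where more than 4 or none did), Jun and the 3 genes nearest to Nrl and Nr2e3. Some genes that this rule names are not reported here. Nr2e3-209, Nr2e3-204, Prkca, Hba-a1 and overlapping genes were added with their values known. The factors and the 15 lists were chosen with earlier results of these data known.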

Additional observations from a re-analysis of the deposited data

How the results depend on the processing

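Of the 10 factors, 1 passed (Nr2e3) under upper-quartile scaling, library totals, thinning, the replicate block and with each library left out (1 to 1). DESeq2 passed 2 (Nr2e3 and Esrrb), and limma-trend on the deposited signal 2 with either pseudocount (Nr2e3 and Otx2). Without a filter on low counts 3 passed (Nr2e3, Crx and Otx2), and with limma-voom 0. The share of all genes that passed moved as well. It was 1.67% in the main fit, 12.9% with DESeq2, and 4.32 and 4.80% with limma-trend (pseudocounts 2 and 0.5). Without the filter it was 2.23%, with limma-voom 3.45% (442 genes), and with a library left out 0.264 to 0.739%. The difference of Neurod1 turned positive with upper-quartile scaling (0.10), library totals (0.19) and thinning (0.025), and that of Prdm1 ran from -3.00 to 0.52 with 1 library left out, positive without control 2. The other 8 factors were lower under all 15 alternatives. Of the transcripts, 3 passed, against 1 with library totals, 9 with limma-voom (Nr2e3-202, as higher, and not Nr2e3-201 among them), 4 with a filter of 5 CPM in 3 libraries and 0 to 1 with a library left out. Transcript use passed in 1 factor, in 2 with the 5 CPM filter and in 0 (0 to 0) with any library left out. Over all genes it passed in 22 of 4548, in 83 of 2394 with that filter, and in 1 to 6 genes with a library left out. No label says what the replicate numbers mark. Deviations of same-numbered libraries correlated at 0.00345, 0.0346 and -0.00967, which cannot show whether these libraries were handled together. With the replicate block 97 genes passed in place of 214, 1 of the transcripts (Nr2e3-201), and 12 rod target genes as lower and 1 as higher. In transcript use that block passed 0 factors, and 0 of all 4548 genes. The causes were not tested. Counts in the labelled libraries were low for Esrrb (28 to 142) and Mef2d (50 to 266), and 28 for Prdm1 in 1 of them.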
